A study of Rattus norvegicus with 26 samples.

Results

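PCB 126 at micromolar doses was compared with PCB 126 at nanomolar doses in primary rat hepatocytes, to ask which transcripts differ once the classical dioxin-response genes are near their upper level. The arrays were chosen by their labels: 4 arrays at -6 and -5 log10 M (1000 and 10000 nM) against 3 arrays at -9 and -8 log10 M (1 and 10 nM), 7 of the 26 arrays of the series. Hepatocytes came from female Sprague Dawley rats of the Crl:CD(SD)IGS BR strain in 2 pools of 3 animals, and each pool is 1 mixture of cells. Cultures received PCB 126, the dioxin TCDD or the vehicle, 0.5% DMSO, for 48 h, and RNA was hybridised to short-oligonucleotide rat arrays. Pool 1 gave an array at 10, 1000 and 10000 nM, pool 2 gave these and one at 1 nM, and each pool gave 1 vehicle array. Levels are the deposited log2 values, and a difference of 1 is a doubling. Estimates come from limma models, and a gene is said to rise or fall where its p, adjusted over 5199 probe sets, was below 0.05.

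PCB 126 is a coplanar polychlorinated biphenyl, and like TCDD it binds the aryl hydrocarbon receptor (AhR). The liganded receptor enters the nucleus, pairs with Arnt, which is also the partner of the hypoxia-inducible factors, and binds DNA at a short core to raise the Cyp1 enzymes, Aldh3a1 and Nqo1. Liver cells also hold the pregnane X receptor (PXR), a sensor of many larger foreign compounds, whose best known rat target is the Cyp3a23-3a1 gene.

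Promoters of 4 genes that the results turn on are shown because they hold the letters that go with these regulators. Each sequence is the 250 bases before the annotated start in RefSeq's GRCr8 rat assembly, read 5′ to 3′ on the gene's strand. Capitals mark GCGTG or its reverse complement, the core bound by AhR with Arnt, in the promoters of Cyp1b1, Nqo1 and Aldoc. In that of Cyp3a23-3a1 they mark AGTTCA, a nuclear receptor core, here as its reverse complement. Cyp1b1, a P450 of the AhR battery, starts downstream of chr6:21094315-21094564 (plus strand), Nqo1, a quinone reductase, of chr19:52220268-52220517 (minus strand), Cyp3a23-3a1 of chr12:14398804-14399053 (minus strand), and Aldoc, a glycolytic aldolase, of chr10:63715294-63715543 (plus strand).
Cyp1b1: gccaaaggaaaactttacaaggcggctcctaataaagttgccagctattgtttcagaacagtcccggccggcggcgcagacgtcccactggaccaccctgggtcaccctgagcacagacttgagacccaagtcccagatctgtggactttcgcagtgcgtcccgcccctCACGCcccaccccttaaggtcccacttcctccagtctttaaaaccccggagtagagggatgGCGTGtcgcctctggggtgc
Nqo1: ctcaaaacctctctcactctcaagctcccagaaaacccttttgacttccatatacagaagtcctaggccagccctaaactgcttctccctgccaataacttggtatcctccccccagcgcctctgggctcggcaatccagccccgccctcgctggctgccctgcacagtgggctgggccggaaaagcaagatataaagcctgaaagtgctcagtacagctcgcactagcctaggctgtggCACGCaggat
Cyp3a23-3a1: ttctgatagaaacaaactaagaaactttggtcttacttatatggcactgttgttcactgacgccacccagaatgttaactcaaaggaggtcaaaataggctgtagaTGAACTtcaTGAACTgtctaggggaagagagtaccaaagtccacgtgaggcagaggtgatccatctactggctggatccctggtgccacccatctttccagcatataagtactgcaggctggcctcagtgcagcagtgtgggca
Aldoc: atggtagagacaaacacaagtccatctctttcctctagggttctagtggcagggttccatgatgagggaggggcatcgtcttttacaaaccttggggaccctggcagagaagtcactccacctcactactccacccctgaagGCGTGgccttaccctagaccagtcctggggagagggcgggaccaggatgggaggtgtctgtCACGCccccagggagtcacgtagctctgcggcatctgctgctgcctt
Counted back from the start, the matches began at bases 81 and 20 in Cyp1b1, at base 10 in Nqo1 and at bases 108 and 47 in Aldoc. In Cyp3a23-3a1 the cores began at bases 144 and 135 and lay in the same orientation, 3 bases apart. Searched on both strands of 33469 promoters of the same length, GCGTG occurred in 25.9%, AGTTCA in 12.2%, and the direct repeat of AGTTCA spaced by 3 bases in 2 promoters. GCGTG was also found in the windows of Pfkl, Pfkp and Pdk1, and neither motif in those of Cyp1a2, Ahr, Cyp2a1, Egln3, Slc16a3, Acta1 and Pon1. A match is a description of the letters and does not show that a factor binds there.

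All estimates carry the pool as a block. Within pool 2, the arrays at 10 and 1000 nM were close, with an SD of their difference of 0.24 log2 over 5199 probe sets and 6 probe sets apart by more than 1 log2. The 1000 and 10000 nM arrays of pool 2 were less alike (SD 0.45, 176 probe sets), as were those of pool 1 (SD 0.53, 384 probe sets). From 10 to 10000 nM the SD was 0.58 in pool 2 (338 probe sets). In pool 1 the 10 nM array was about as far from the 1000 nM array (SD 0.397, 139 probe sets) as from the 10000 nM array (SD 0.391, 126 probe sets). The pool 2 array at 10000 nM had a median of 3.78 against 3.48 to 3.58 on the other 3 PCB 126 arrays of that pool in the comparison, and its 6 reverse-strand control probe sets averaged 8.36 against 5.21 to 6.47. One array outside the comparison, labelled PCB 126 at -12 log10 M (0.001 nM) in pool 2, read 10.80 for Cyp1a1 where pool 1 at that dose read 3.21. That array enters the contrasts with vehicle through the shared spread, so the errors of AhR targets there include it. Without it, nanomolar against vehicle gave 63 probe sets in place of 66 and micromolar against vehicle 156 in place of 158. Hepatocyte markers were high on all 7 arrays: 10 of 12 were measured, with summed levels of 14.96 to 15.29 at nanomolar and 15.08 to 15.29 at micromolar doses. Stellate cell and fibroblast markers (8 of 16 measured) summed to 11.45 to 12.29 and 10.71 to 12.10, and cholangiocyte markers (5 of 11) to 8.93 to 9.48 and 7.95 to 9.54. Macrophage markers (6 of 17) summed to 8.05 to 8.34 and 7.97 to 8.32 and endothelial markers (3 of 12) to 4.82 to 5.53 and 5.04 to 5.51. The defining macrophage genes Cd68, Cd163, Csf1r, Marco and Clec4f, and the endothelial Pecam1, Vwf and Cdh5, had no kept probe set of their own. Whether they were missing from the array, shared a probe set or were below the expression filter was not separated, so their levels are not known. In bulk RNA, fewer cells of a type and less RNA per cell cannot be told apart.

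The AhR targets were far above vehicle at nanomolar doses, and their levels at micromolar doses were close to these. Cyp1a1, the usual marker P450 of AhR activation, read 3.45 in vehicle cells of pool 1, 12.63 at 10 nM, 12.41 at 1000 nM and 12.43 at 10000 nM. In pool 2 it read 3.28 in vehicle, 11.79 at 1 nM, 12.001 at 10 nM, 12.30 at 1000 nM and 12.05 at 10000 nM. The nanomolar and micromolar arrays overlapped in their overall range, while every one of them was more than 8 log2 above vehicle. Cyp1a1 rose 370-fold at nanomolar doses over vehicle (adjusted p = 0.0254, limma) and 489-fold at micromolar doses (adjusted p = 0.00563). Over the alternatives these adjusted p values ran from 4.81e-07 to 0.221 and from 3.73e-08 to 0.0826. The smallest were those without the array labelled 0.001 nM of pool 2, and both calls were lost when either vehicle array was left out. Micromolar minus nanomolar was 0.09 ± 0.14 log2 (SE), with a 95% interval of -0.23 to 0.40, and its sign changed under 4 of the 25 alternatives run on it, one of them without the 1 nM array and one without the 1000 nM array of pool 2.

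Cyp1a2, the second of the inducible liver P450s, read 10.75, 10.65 and 11.16 in pool 1 at 10, 1000 and 10000 nM. In pool 2 it read 10.28, 10.95, 11.37 and 10.90 at 1, 10, 1000 and 10000 nM, against 3.54 and 3.39 in vehicle. It rose 123-fold at nanomolar (adjusted p = 0.00568) and 188-fold at micromolar doses (adjusted p = 0.000553), and the step between them was 0.37 ± 0.22 log2 (95% interval -0.13 to 0.88). As with Cyp1a1, the ranges of the dose groups overlapped.

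Cyp1b1, an extrahepatic-type P450 that metabolises oestrogens, read 10.51, 10.82 and 9.77 in pool 1 from 10 to 10000 nM and 9.002, 10.75, 10.91 and 10.15 in pool 2 from 1 to 10000 nM, against 4.66 and 3.70 in vehicle. The 1 nM array was the lowest and the 10000 nM array lay below the 1000 nM one in both pools. Cyp1b1 rose 47.4-fold over vehicle at nanomolar (adjusted p = 0.0148) and 75.1-fold at micromolar doses (adjusted p = 0.00133), with a step of 0.30 ± 0.45. Nqo1 read 10.66, 10.02 and 10.07 in pool 1 and 9.85, 10.43, 10.66 and 10.13 in pool 2, against 7.05 and 7.70 in vehicle, with no order by dose. It rose 6.58-fold at nanomolar (adjusted p = 0.00568) and 7.2-fold at micromolar doses (adjusted p = 0.000566), and its step was -0.09 ± 0.24. Without the pool 2 vehicle array the nanomolar calls of Cyp1a1, Cyp1a2, Cyp1b1 and Aldh3a1 were lost (adjusted p 0.221, 0.0753, 0.191 and 0.115) and that of Nqo1 was kept (0.04).

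Aldh3a1, an aldehyde dehydrogenase that is nearly silent in untreated liver, was lower at 1 nM than at the higher doses. In pool 2 it read 6.27 at 1 nM, 8.29 at 10 nM, 8.82 at 1000 nM and 8.61 at 10000 nM, and in pool 1 8.58, 8.44 and 8.32 from 10 to 10000 nM, with vehicle at 2.30 and 2.45. Only the 1 nM array was low, and from 10 nM upwards the groups overlapped. The step was 0.78 ± 0.49 log2 (95% interval -0.35 to 1.91) with all 7 arrays and 0.11 without the 1 nM array. Over vehicle Aldh3a1 rose 26.7-fold at nanomolar (adjusted p = 0.00808) and 72.2-fold at micromolar doses (adjusted p = 0.000421). In the nanomolar mean the single 1 nM array weighs as much as both 10 nM arrays together. Without it, nanomolar minus vehicle was 6.06 log2 for Aldh3a1 in place of 4.74, where micromolar minus vehicle was 6.17. For Cyp1a1, Cyp1a2, Cyp1b1 and Nqo1 the nanomolar estimate was then 8.95, 7.38, 6.45 and 3.17. Their micromolar estimates were 8.93, 7.56, 6.23 and 2.85.

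**Figure D1:**
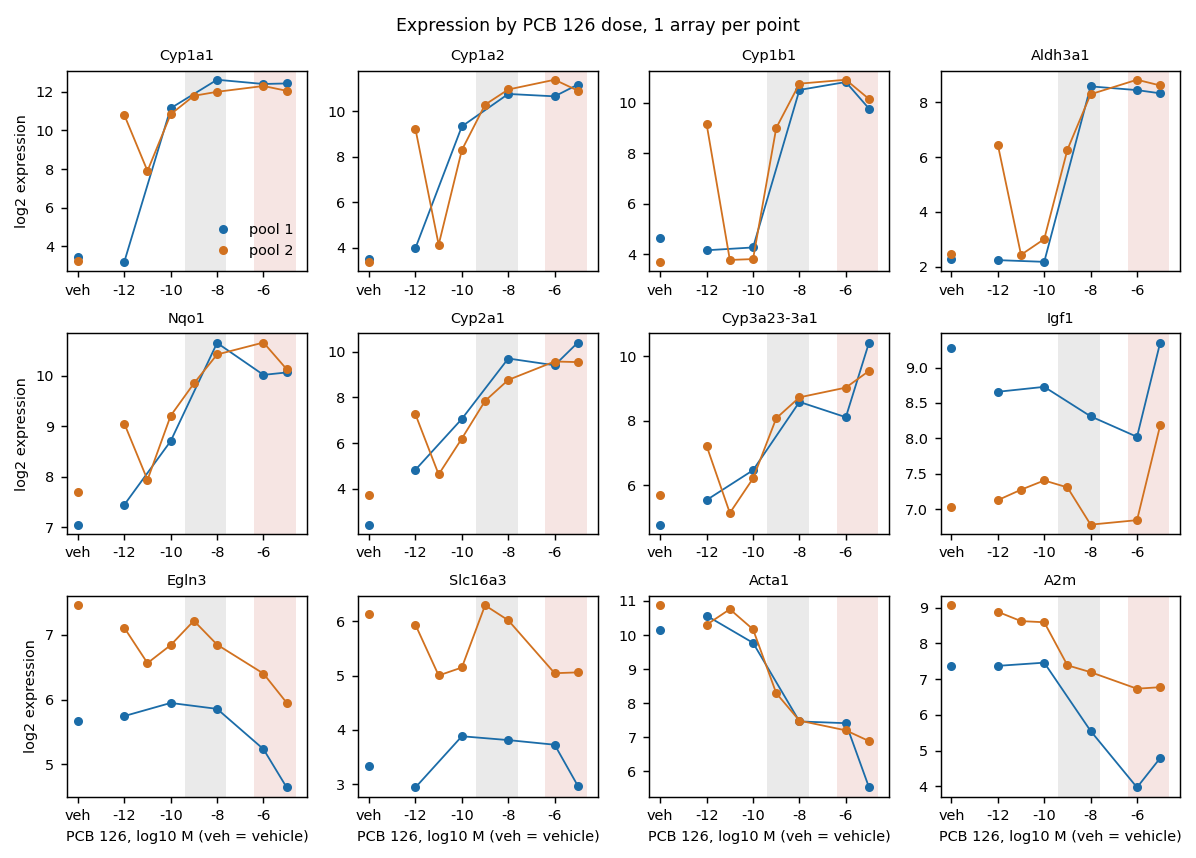
Log2 levels of 12 genes (vertical axes) against log10 molar PCB 126 dose, vehicle at the left, with pool 1 in blue and pool 2 in orange; the grey band holds the nanomolar arrays and the red band the micromolar arrays. Cyp1a1 lies between 11.79 and 12.63 in both bands, while Egln3 and Slc16a3 are lower in the red band in each pool and Cyp3a23-3a1 reaches 10.43 in pool 1 at the highest dose.

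Of the 11 listed AhR battery genes 7 were measured. At nanomolar doses 5 of these 7 rose over vehicle, the same number did at micromolar doses, and 0 of 7 passed in micromolar against nanomolar. Over all 5199 probe sets 1.27% passed in nanomolar against vehicle, 3.04% in micromolar against vehicle and 0% in micromolar against nanomolar. The remaining members, Nfe2l2, a regulator of antioxidant genes, and Ugdh, which makes the glucuronidation cofactor, gave steps of -0.29 ± 0.23 and -0.26 ± 0.19. Of the receptor complex itself, Ahr gave a step of 0.01 ± 0.16, Arnt of 0.09 ± 0.14 and the chaperone Hsp90ab1 of 0.004 ± 0.12. Ahr read 5.003 and 3.89 in vehicle, 5.98, 5.86 and 5.79 in pool 1 from 10 to 10000 nM, and 4.89, 4.59, 4.86 and 4.85 in pool 2 from 1 to 10000 nM. It rose by 0.89 log2 over vehicle at micromolar doses (adjusted p = 0.0452), a call lost under 9 of 10 alternatives, and its nanomolar estimate was 0.83 (adjusted p = 0.183).

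Micromolar against nanomolar PCB 126 gave 0 probe sets of 5199 at an adjusted p below 0.05 in limma (smallest adjusted p 0.916). At an unadjusted p below 0.05 there were 94 (1.81%), 28 higher and 66 lower at micromolar doses. The median probe set's 95% interval reached 0.397 log2 to either side, without adjustment for the number of probe sets. Steps as large as -0.88 log2 (Egln3, below) did not pass the adjusted test either. The lack of calls with these 7 arrays therefore does not show that steps above 0.397 log2 were absent. Across probe sets the steps of the pools had r = -0.05, which is a description over genes that are not independent replicates. The genes below are therefore given as values: those with the smallest p among genes whose step had the same sign in both pools, 15 in each direction, named for that agreement and not evidence of it. Each of the 30 had an adjusted p of 0.916 in limma. Each kept its sign under all alternative settings run on it (24 or 25 a gene, the mean over the gene's probe sets included). Fits on 1 pool could not change a sign picked to be equal in both, and the other fits reuse the same arrays. The kept signs are therefore not evidence for the steps.

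Of the 15 lower genes, 5 take part in glucose breakdown or the response to low oxygen: Egln3, Slc16a3, Aldoc, Pfkl and Pfkp. Egln3, the prolyl hydroxylase that marks hypoxia-inducible factors for breakdown and is itself induced by them, read 5.86 at 10 nM, 5.24 at 1000 nM and 4.65 at 10000 nM in pool 1. In pool 2 it read 7.21 at 1 nM, 6.84 at 10 nM, 6.40 at 1000 nM and 5.95 at 10000 nM. In each pool the arrays stood in the order of dose, and no micromolar array reached a nanomolar one of its pool. The step was -0.88 ± 0.22 log2 (0.544-fold, 95% interval -1.38 to -0.37), and leaving out each array in turn gave -0.996 to -0.77. Its second probe set gave -0.45. Egln3 was also below vehicle (5.66 and 7.45) at micromolar doses, where it fell by 0.999 ± 0.24 log2 (adjusted p = 0.0368), a call lost under all 10 alternatives (adjusted p 0.0521 to 1, any array left out included), while nanomolar minus vehicle was -0.10 ± 0.27 (adjusted p = 0.963).

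Slc16a3, the exporter of lactate from glycolytic cells, read 3.81, 3.73 and 2.97 in pool 1 from 10 to 10000 nM and 6.30, 6.02, 5.04 and 5.06 in pool 2 from 1 to 10000 nM. In pool 2 both micromolar arrays were about 1 log2 below both nanomolar ones, whereas in pool 1, near the bottom of the scale, only the 10000 nM array was clearly lower. The step was -0.85 ± 0.23 (0.555-fold, 95% interval -1.37 to -0.33), and vehicle read 3.34 and 6.13, so the micromolar level was not below vehicle by the test (-0.53 ± 0.42, adjusted p = 0.752).

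Aldoc had the smallest p of the 15 lower genes (-0.51 ± 0.11, 95% interval -0.77 to -0.25) but was dim, at 3.83, 3.55 and 3.31 in pool 1 and 4.31, 4.32, 3.72 and 3.75 in pool 2, where the expression filter stood at 3.71. Pfkl, the liver form of phosphofructokinase, which sets the pace of glycolysis, read 7.36, 6.25 and 6.91 in pool 1 and 8.02, 8.001, 7.56 and 7.49 in pool 2, a step of -0.60 ± 0.21 (95% interval -1.08 to -0.13). Its vehicle values were 5.77 and 7.53, so the nanomolar arrays were above vehicle in each pool. The micromolar arrays were also above vehicle in pool 1 and stood at its level in pool 2. Pfkp, the platelet form of that enzyme, gave -0.71 ± 0.26 (95% interval -1.29 to -0.12), with 6.84, 6.59, 5.98 and 5.401 in pool 2 from 1 to 10000 nM and 4.61, 4.66 and 4.11 in pool 1. The mean over the probe sets of Pfkp was -0.41.

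**Figure D2:**
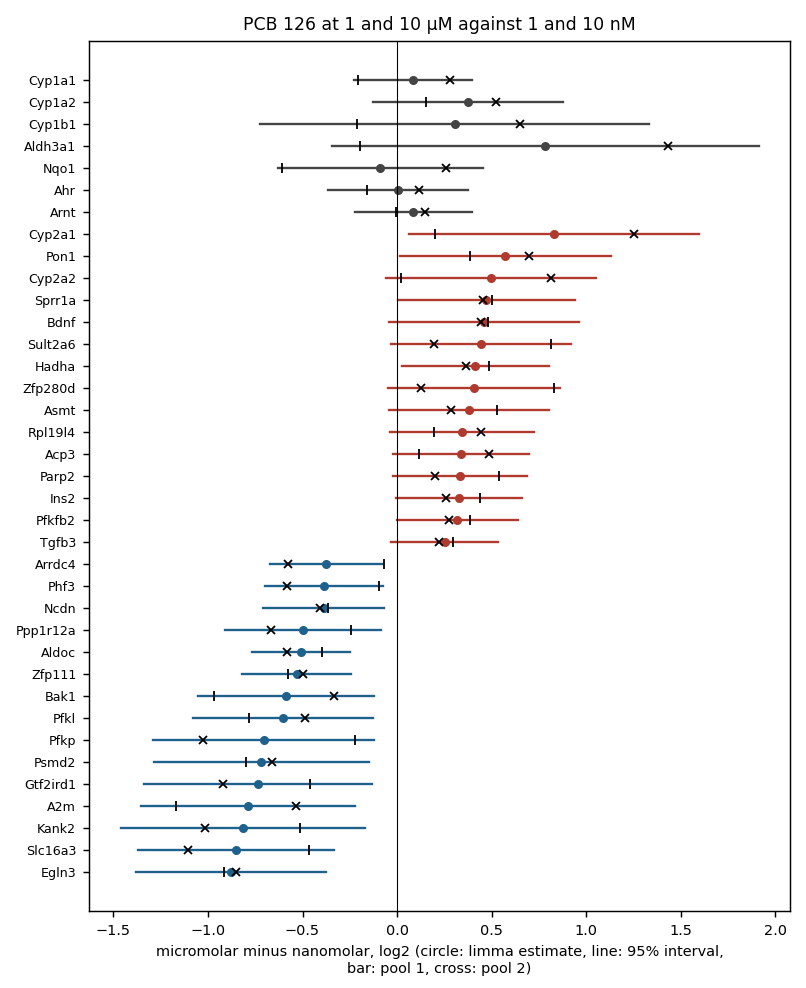
Micromolar minus nanomolar estimates on the log2 scale (horizontal axis, points, with 95% intervals). Shown are the AhR genes Cyp1a1, Cyp1a2, Cyp1b1, Aldh3a1, Nqo1, Ahr and Arnt, the 15 named higher genes in red and the 15 named lower genes in blue. The pool 1 difference is a bar mark and that of pool 2 a cross. The AhR genes' intervals span 0, the lowest estimate is that of Egln3 (-0.88), and the highest is that of Cyp2a1 (0.83).

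A wider list of 31 glycolytic and hypoxia-responsive genes was drawn up after these values had been seen, so it is not independent of them, and 18 of its genes were measured. It takes in the 5 genes above, which had been picked for small p and lower levels in both pools. These 5 are therefore part of the counts of 10 and 6 below by construction. In both pools 10 of the 18 were lower at micromolar doses (55.6%), against 769 of all 3034 genes (25.3%), and 1 of the 18 was higher in both. The median step was -0.28 log2 against 0.003 over all genes, 16 of 18 were below 0, and 6 had an unadjusted p below 0.05 and lower levels, against 44 of the 3034. By the adjusted p 0 of the 18 passed. Pdk1, a kinase that inhibits pyruvate dehydrogenase, gave -0.58 ± 0.23 (95% interval -1.11 to -0.05). It read 7.08, 6.82, 6.22 and 5.90 in pool 2 from 1 to 10000 nM and 5.81, 5.91 and 5.49 in pool 1. P4ha1, a collagen prolyl hydroxylase, gave -0.44 ± 0.23, and Pgk1, phosphoglycerate kinase, gave -0.31 ± 0.23. The list was uneven. Eno1, enolase, gave 0.02 ± 0.12, Pgam1 -0.09 ± 0.15 and Aldoa -0.09 ± 0.14. Vegfa, a classical hypoxia target, gave -0.12 ± 0.20. The 10000 nM array of pool 2 had the high median described above. With 1000 nM alone in the micromolar set, the steps were -0.63 for Egln3, -0.67 for Slc16a3, -0.73 for Pfkl, -0.46 for Aldoc and -0.40 for Pfkp.

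**Figure D3:**
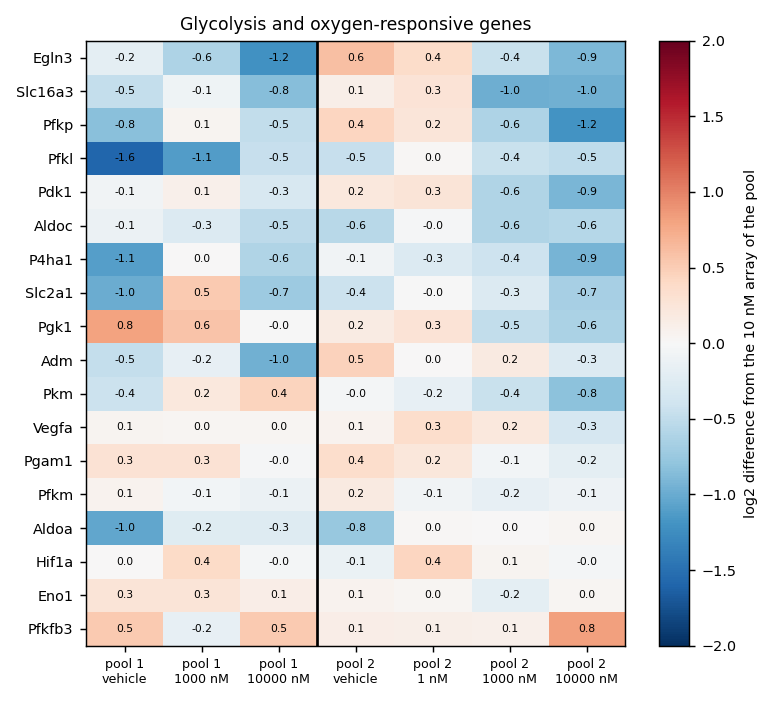
Heat map of the log2 difference from the 10 nM array of the same pool, for 18 glycolytic and hypoxia-responsive genes (vertical). Columns (horizontal) are, by pool, the vehicle array and the other PCB 126 arrays of the comparison. Blue marks lower values, and the difference is printed in each cell. Most cells at 1000 and 10000 nM in pool 2 and at 10000 nM in pool 1 are below 0, those at 1000 nM in pool 1 are mixed, and Egln3 is below 0 in all 4 micromolar cells.

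The remaining lower genes came from several classes. Kank2, an actin-linked adaptor, gave -0.82 ± 0.28, and Psmd2, a subunit of the proteasome cap, gave -0.72 ± 0.25. Gtf2ird1, a transcription regulator, gave -0.74 ± 0.26, and Bak1, a pore-forming promoter of apoptosis, gave -0.59 ± 0.20. Zfp111, Ppp1r12a, Ncdn, Phf3 and Arrdc4 gave steps of -0.53, -0.50, -0.39, -0.39 and -0.37, and the last 3 of these had values near the expression filter. The probe sets of Ppp1r12a disagreed, with a mean step of -0.06. Bak1 read 6.56, 5.59 and 5.59 in pool 1 from 10 to 10000 nM and 6.45, 6.63, 6.37 and 6.05 in pool 2 from 1 to 10000 nM. In each pool both micromolar arrays of Bak1 were below the nanomolar ones, and its vehicle values of 5.83 and 6.23 lay among the micromolar ones. Without any 1 array, its step ran from -0.73 to -0.33.

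The 15 higher genes had steps of 0.25 to 0.83, and the 15 lower ones of -0.88 to -0.37. Cyp2a1, a P450 that hydroxylates steroids, read 9.70, 9.41 and 10.40 in pool 1 from 10 to 10000 nM and 7.85, 8.77, 9.57 and 9.54 in pool 2 from 1 to 10000 nM, against 2.44 and 3.74 in vehicle. In pool 2 the level was higher at each dose up to 1000 nM, and in pool 1 the 1000 nM array lay below the 10 nM one. Cyp2a1 rose 41.5-fold over vehicle at nanomolar (adjusted p = 0.00568) and 99.9-fold at micromolar doses (adjusted p = 0.00035, the smallest of that comparison). Without the 1 nM array its nanomolar estimate over vehicle was 6.15 log2 in place of 5.38, against 6.64 at micromolar doses. The step was 0.83 ± 0.34 (1.78-fold, 95% interval 0.06 to 1.60) and 0.50 without the 1 nM array. Its relative Cyp2a2, whose probe sets can share sequence with it, gave 0.50 ± 0.24, and 0.285 without that array.

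Pon1, the paraoxonase that liver secretes onto high-density lipoprotein, read 10.49, 11 and 10.75 in pool 1 and 9.48, 10.49, 10.90 and 10.48 in pool 2, against 8.61 and 8.88 in vehicle. It rose 2.35-fold over vehicle at nanomolar doses (adjusted p = 0.0389, lost under 7 of 9 alternatives) and 4.11-fold at micromolar doses (adjusted p = 0.000421, kept under all 10). Without the 1 nM array the nanomolar estimate over vehicle was 1.75 log2 in place of 1.23, against 2.04 at micromolar doses. The step of 0.57 ± 0.24 (95% interval 0.01 to 1.13) became 0.29 without the 1 nM array, so for Pon1, Cyp2a1 and Aldh3a1 the lowest nanomolar array decided much of it. Hadha, a subunit of the mitochondrial enzyme of long-chain fatty acid oxidation, gave 0.41 ± 0.17, at 7.49, 8.07 and 7.89 in pool 1 and 7.52, 7.82, 8.05 and 8.03 in pool 2. Its 3 probe sets disagreed, with a mean of 0.14. Sult2a6, a hydroxysteroid sulfotransferase, gave 0.44 ± 0.21, but 0.196 without the 10 nM array of pool 1, and 0.234 as the mean over its probe sets. The other higher genes, Sprr1a, Pfkfb2, Ins2, Parp2, Acp3, Bdnf, Rpl19l4, Asmt, Tgfb3 and Zfp280d, ran from 0.25 to 0.47. Of these, Bdnf averaged 0.193 over its probe sets and Acp3 0.244, and Zfp280d came to 0.124 when the 10 nM array of pool 1 was left out.

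Of 11 measured genes of fatty acid synthesis 7 had steps below 0, with a median of -0.31, and 2 had an unadjusted p below 0.05. Fasn, the fatty acid synthase, read 5.34, 4.68 and 5.02 in pool 1 from 10 to 10000 nM and 5.59, 5.50, 5.32 and 4.97 in pool 2 from 1 to 10000 nM. All micromolar values of Fasn were below all nanomolar ones, with vehicle higher still at 5.91 and 6.01. Its step was -0.43 ± 0.17 (95% interval -0.83 to -0.04), and against vehicle it fell by 0.96 ± 0.22 log2 at micromolar doses (adjusted p = 0.0283, lost under 6 of 10 alternatives), with a nanomolar estimate of -0.53 ± 0.24 (adjusted p = 0.628). Me1, which supplies NADPH for that synthesis, gave -0.56 ± 0.22 (95% interval -1.07 to -0.06). Of 13 cholesterol synthesis genes 11 had steps below 0 (median -0.18).

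Heat shock genes (11 measured) had a median of -0.14 with 9 below 0, and 45.5% of them were lower in both pools, the same share as in fatty acid synthesis. Hspa1a, an inducible chaperone, gave -0.39 ± 0.14 (95% interval -0.71 to -0.06). Contractile and actin genes (28) had a median of -0.06 with 19 below 0, and annexin, S100 and matrix genes (26) -0.10 with 18 below 0. In the opposite direction, bile acid genes (15 measured) had a median of 0.11 with 3 below 0, constitutive liver P450s (19) 0.08 with 4 below 0, and chemokines and inflammatory signals (18) 0.115 with 4 below 0. Over all 3034 genes the median was 0.003 and 1502 were below 0. None of the 27 pathway lists held a gene that passed in this comparison.

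**Figure D4:**
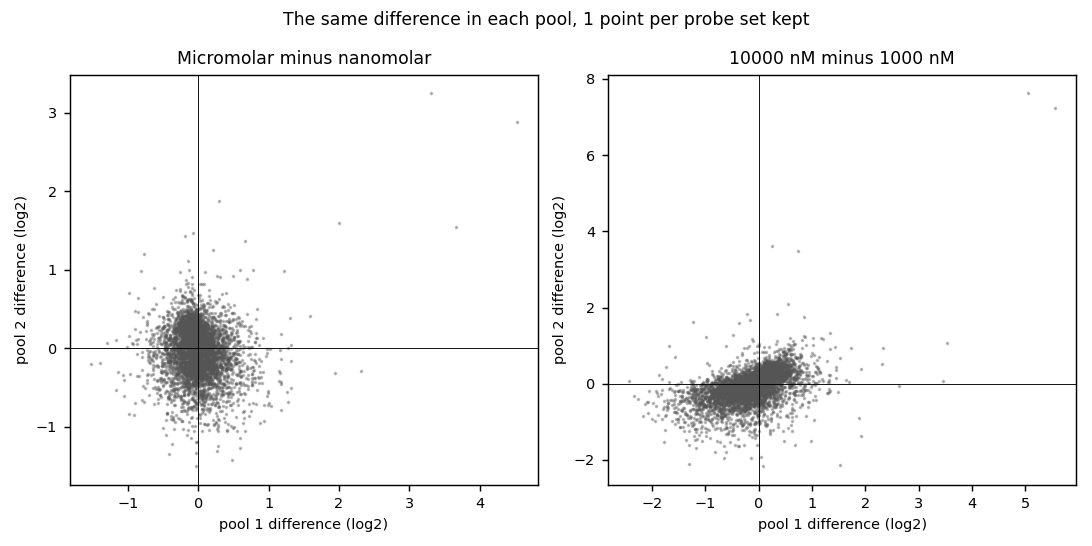
Difference in pool 2 (vertical axis, log2) against the difference in pool 1 (horizontal axis, log2) for 5199 probe sets, on the left for micromolar minus nanomolar and on the right for 10000 minus 1000 nM. The left cloud is round (r = -0.05) and the right one is stretched along the diagonal (r = 0.52).

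The micromolar doses were then compared with each other. Between 10000 and 1000 nM no probe set passed by the adjusted p (0%, smallest 0.18), but 873 (16.8%) had an unadjusted p below 0.05, 411 higher and 462 lower. Single arrays moved that unadjusted count. In pool 1, omitting 1000 nM gave 159 and omitting 10000 nM gave 1478. In pool 2 the respective counts were 1313 and 394, and with no pool block it was 50. The pool 1 and pool 2 differences had r = 0.52 across 5199 probe sets (Spearman's rho 0.58), 0.44 after quantile normalization, and 0.32 over the 1372 probe sets with a mean above 7. From 10 to 1000 nM the corresponding r was -0.31. Both 10000 nM arrays differed from their pool's 1000 nM array in the upper quartile of all values (5.44 against 5.69 in pool 1, 5.68 against 5.89 in pool 2), so a shared shift of the arrays moves with these values, and its part in them was not tested.

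Cyp3a23-3a1, the PXR target, was highest at 10000 nM. It read 8.59 at 10 nM, 8.11 at 1000 nM and 10.43 at 10000 nM in pool 1, and 8.08, 8.73, 9.03 and 9.55 at 1, 10, 1000 and 10000 nM in pool 2, against 4.77 and 5.69 in vehicle. In each pool the 10000 nM array was the highest, 5-fold over 1000 nM in pool 1 and 1.43-fold in pool 2. The estimate was 1.42 ± 0.61 log2 (95% interval 0.11 to 2.73, adjusted p = 0.282 in limma). Micromolar minus nanomolar as a whole was 0.81 ± 0.49. Over vehicle Cyp3a23-3a1 had already risen 7.62-fold at nanomolar doses (adjusted p = 0.0219, lost under 5 of 9 alternatives), and it rose 16.6-fold at micromolar doses (adjusted p = 0.000562, kept under all 10).

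Of 8740 probe sets other than controls, 25 were higher on both 10000 nM arrays than on every one of the other 24 arrays, TCDD included, and 22 were lower on both. Of the 5199 kept ones these were 21 (0.404%) and 22 (0.423%). The 4 widest gaps among those that were higher, 0.72, 0.64, 0.54 and 0.47 log2, all belonged to Cyp3a23-3a1 probe sets, 4 of its 5, of which one also names Cyp3a2 and one was below the expression filter. The next gap was 0.23, of Eif2b1, a translation initiation factor subunit. The probe set shared with Cyp3a2 read 3.77, 4.004 and 7.53 in pool 1 from 10 to 10000 nM and 3.91, 5.39, 5.71 and 6.79 in pool 2 from 1 to 10000 nM. Another read 5.80, 5.84 and 8.17 in pool 1 and 6.34, 6.88, 7.12 and 8.06 in pool 2. In all of these both 10000 nM arrays were the highest of their pool. The probe sets can bind transcripts of several Cyp3a genes and are not independent of each other. Scarb1, the hepatic receptor for high-density lipoprotein, had a gap of 0.16, and those lower on both arrays included Acsl1 (0.23), which activates fatty acids, Tpp2 (0.24), a peptidase, and Lox (0.15), which cross-links collagen. These probe sets were picked by their values and are not tested.

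**Figure D5:**
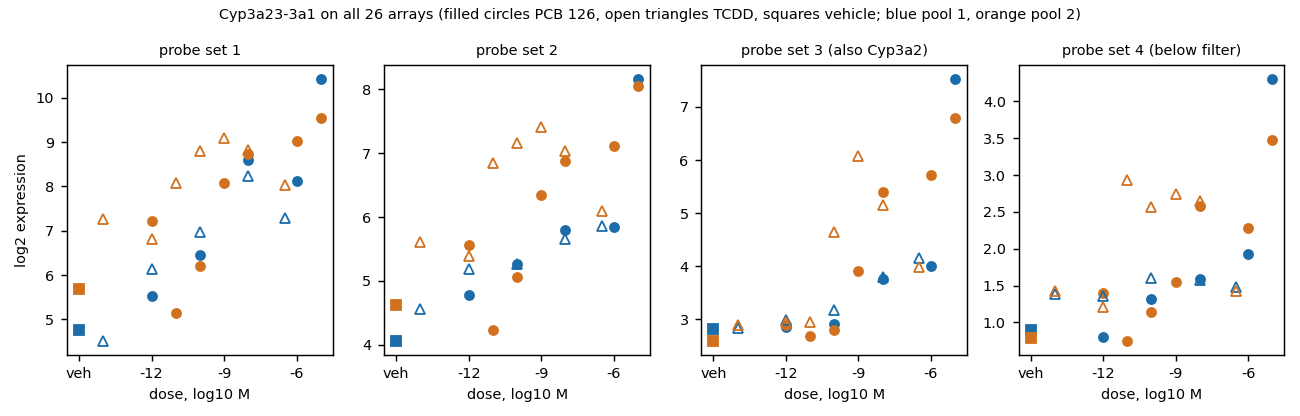
Log2 level (vertical axes) of 4 Cyp3a23-3a1 probe sets on all 26 arrays against log10 molar dose (horizontal axis), with filled circles for PCB 126, open triangles for TCDD, squares for vehicle, blue for pool 1 and orange for pool 2. Both PCB 126 arrays at 10000 nM lie above every other array in each of the 4 panels.

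TCDD did not bring Cyp3a23-3a1 as high on 4 of its 5 probe sets. The gene's highest level over 12 TCDD arrays was 9.08, against 10.43 over 12 PCB 126 arrays, and on the probe set named with Cyp3a2 it was 6.07 against 7.53. The fifth probe set went the other way, at the bottom of the scale, with a highest level of 3.38 over the TCDD arrays and 2.56 over the PCB 126 arrays. At 1000 nM and below, the highest PCB 126 level of the gene was 9.03, and 5.71 on the probe set named with Cyp3a2. Both were below the highest TCDD levels. The TCDD doses end at -6.5 log10 M (316 nM), so the micromolar doses have no counterpart. The step from 1 and 10 nM to 316 nM TCDD was -0.94 for Cyp3a23-3a1, and the PCB 126 step minus that step was 2.06 ± 0.75 log2 (95% interval 0.46 to 3.66, adjusted p = 1).

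Other genes had large estimates between 10000 and 1000 nM with the same sign in both pools, none with an adjusted p below 0.18. Igf1, the liver's secreted growth factor, read 8.31, 8.02 and 9.35 in pool 1 and 7.31, 6.78, 6.84 and 8.18 in pool 2, an estimate of 1.34 ± 0.32 (95% interval 0.64 to 2.03, adjusted p = 0.18), though its 5 probe sets disagreed in micromolar against nanomolar, where their mean was 0.08. Its vehicle values were 9.28 and 7.03. Dnajb9, an endoplasmic reticulum co-chaperone of the unfolded protein response, read 4.71, 5.29 and 3.99 in pool 1 and 6.41, 6.47, 6.19 and 4.58 in pool 2, an estimate of -1.46 ± 0.35 (95% interval -2.21 to -0.71). Pcna, the sliding clamp of DNA replication, gave -1.20 ± 0.31 (95% interval -1.87 to -0.53), at 5.75 and 4.43 in pool 1 and 6.88 and 5.79 in pool 2. Acadm, a mitochondrial enzyme of fatty acid oxidation, gave -1.32 ± 0.42 (95% interval -2.22 to -0.41), at 6.06 and 4.49 in pool 1 and 7.24 and 6.17 in pool 2. For Dnajb9, Pcna and Acadm the 10000 nM array was the lowest of its pool and the 1000 nM array stood with the nanomolar ones.

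Of 24 proteasome and ubiquitin genes 18 were lower than at 1000 nM in both pools and 0 were higher in both, with a median of -0.45 log2. Of 13 cholesterol synthesis genes 10 were lower in both pools and 0 higher (median -0.54), of 11 heat shock genes 9 and 0 (median -0.41), and of 19 endoplasmic reticulum stress genes 14 and 1 (median -0.47). Mitochondrial respiration genes (30) counted 21 and 3, with a median of -0.27. Over all 3034 genes 1218 (40.1%) were lower in both pools and 1013 (33.4%) higher, with a median of -0.05. Sqle, squalene epoxidase of the cholesterol pathway, is an example, at 7.30, 7.13 and 6.11 in pool 1 and 8.51, 8.53, 8.46 and 7.89 in pool 2 (10000 minus 1000 nM -0.79 ± 0.36, 95% interval -1.57 to -0.02). Insig1, which restrains that pathway, gave -1.28 ± 0.39 (95% interval -2.10 to -0.46), and Psma5, a proteasome core subunit, gave -0.81 ± 0.29 (95% interval -1.44 to -0.18). In micromolar against nanomolar, proteasome genes had a median of 0.01, with 10 of 24 higher and 5 lower in both pools. None of these genes passed the adjusted test between 10000 and 1000 nM.

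With 10000 nM alone set against 1 and 10 nM (5 arrays), 258 probe sets passed (4.96%), 44 higher (0.846%) and 214 lower (4.12%). The same comparison gave 1 after the arrays were centred on their medians, 1 after quantile normalization, and 0 with the spread shared over all 26 arrays (716 at an unadjusted p below 0.05). Values are therefore given without a verb of change. Of all 3034 genes 135 passed with lower levels (4.45%). Among the glycolytic and hypoxia-responsive genes 5 of 18 did (Slc2a1, Egln3, P4ha1, Pfkp and Slc16a3), from the list drawn up after values had been seen. Cholesterol synthesis counted 4 of 13 (Insig1, Msmo1, Sqle and Ebp), fatty acid synthesis 3 of 11 (Me1, Acly and Scd2), and fatty acid oxidation 3 of 23 (Hadhb, Acadm and Cpt1a). Cyp3a23-3a1 was among the 44 that were higher, at 1.45 log2 (adjusted p = 0.0108, and 0.173 to 0.242 under the centring, quantile and 26-array alternatives). The largest estimate of all, 6.53 for a Kctd13 probe set, came with 10.21 on the pool 1 vehicle array as well, so that probe set was high without PCB 126 too.

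Against vehicle, nanomolar PCB 126 gave 66 probe sets, 47 higher (0.904%) and 19 lower (0.365%), and micromolar PCB 126 gave 158, 81 higher (1.56%) and 77 lower (1.48%). Higher calls made up 71.2% at nanomolar doses, and 83.3% with arrays centred on their medians. At micromolar doses they made up 51.3%, but 72.5% without the pool 2 vehicle array (58 higher and 22 lower) and 76.9% without the pool block (30 and 9). Leaving out a vehicle array gave a nanomolar count of 40 (pool 1) or 21 (pool 2), and leaving out a 10 nM array gave 24 or 37. The micromolar count was 81 or 80 without one vehicle array (pool 1 or 2), and 100 when the 1000 nM culture of pool 2 was left out. The comparisons share the vehicle arrays. The micromolar mean rests on 4 arrays against 3, of which the 1 nM array weighs as much as both 10 nM arrays together. The counts therefore do not show that more genes respond at the higher doses. Per gene, 21 rose and 9 fell at nanomolar doses, and 37 rose and 46 fell at micromolar doses, of 3034. Egln3 and Fasn, described above, passed at micromolar and not at nanomolar doses. Homer1, a scaffold protein chosen here after its values were seen, fell by 0.83 ± 0.20 log2 at micromolar doses (adjusted p = 0.0306, lost under 7 of 10 alternatives) with a nanomolar estimate of -0.33, but its other 3 probe sets did not pass.

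Acta1 and A2m fell against vehicle at both dose ranges, with few other genes of their lists. Of 28 measured contractile and actin genes 2 fell at nanomolar and 3 at micromolar doses, and 0 rose at either. Of 32 acute phase and complement genes 1 rose and 1 fell at nanomolar doses and 2 rose and 2 fell at micromolar doses, with medians above 0 (0.22 and 0.18 log2), so A2m did not stand for that list. Acta1, skeletal actin, read 10.16 and 10.87 in vehicle, 7.47, 7.42 and 5.53 in pool 1 from 10 to 10000 nM, and 8.30, 7.49, 7.20 and 6.89 in pool 2 from 1 to 10000 nM. All PCB 126 arrays of the comparison were below vehicle, and the 10000 nM array was the lowest of each pool. Acta1 fell by 2.73 log2 at nanomolar (adjusted p = 0.0233, lost under 6 of 9 alternatives) and by 3.75 at micromolar doses (adjusted p = 0.000573, kept under all 10), and the step between them was -0.90 ± 0.42 (95% interval -1.87 to 0.06). Tagln, a smooth muscle actin-binding protein that stellate cells and fibroblasts also make, had a nanomolar estimate of -2.09 (adjusted p = 0.058) and fell by 2.95 at micromolar doses (adjusted p = 0.00162), with a step of -0.66 ± 0.40. Summed stellate cell and fibroblast markers, a list that includes Tagln, ran from 11.96 to 12.69 in vehicle. They ran from 11.45 to 12.29 at nanomolar and 10.71 to 12.10 at micromolar doses, so the ranges overlapped. Of the 8 measured members 4 had micromolar minus nanomolar steps below 0 (median -0.008), and the part of these cells in the result was not tested. A2m, the rat acute phase protease inhibitor, read 7.37 and 9.06 in vehicle, 5.55, 3.97 and 4.80 in pool 1 and 7.39, 7.19, 6.73 and 6.77 in pool 2. It fell by 1.72 at nanomolar (adjusted p = 0.0467, lost under 8 of 9 alternatives) and by 2.65 at micromolar doses (adjusted p = 0.000635), the second lost without the pool block (adjusted p = 0.545), with a step of -0.79 ± 0.25 (95% interval -1.35 to -0.22). Its 5 probe sets disagreed on the step, with a mean of -0.23.

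The same genes were looked up at the top of the TCDD range, where their estimates were above 0. The doses are not matched to those of PCB 126. The TCDD step, 316 nM minus 1 and 10 nM, was 1.67 for Acta1, 1.18 for Tagln, 1.86 for A2m (95% interval 1.02 to 2.69, adjusted p = 1) and 0.33 for Egln3. The PCB 126 step minus the TCDD step was -2.69 ± 0.71 for Acta1 (95% interval -4.20 to -1.19), -2.04 ± 0.64 for Tagln (95% interval -3.42 to -0.67), -2.78 ± 0.51 for A2m (95% interval -3.87 to -1.69) and -1.23 ± 0.35 for Egln3 (95% interval -1.97 to -0.49). The adjusted p was 0.376 for A2m and 1 for Acta1, Tagln and Egln3, so no step passed as different between the chemicals. Over 5199 probe sets 0% passed for the TCDD step (147 at an unadjusted p below 0.05) and 0% for the difference of the steps (110). For Pon1 and Cyp2a2, described above, the differences of the steps were 1.38 ± 0.35 (95% interval 0.62 to 2.13) and 0.88 ± 0.34 (95% interval 0.16 to 1.60), both with an adjusted p of 1.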

How the data were processed

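RNA from the cultures was measured on Affymetrix rat genome arrays. The values are the authors' deposited log2 expression values, 1 column per array, summarised with GCRMA 2.8.0 per the submitters' processing notes, which also name RMA. What RMA was used for, and with which settings, is not given in the sources used, and scanner files were not used here. GCRMA normalizes between arrays. Differences between dim probe sets may be less reliable, which was not tested. The number of arrays limits the precision. No columns without a sample remained (0), and no 2 of the 26 arrays were identical.

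Of 8799 probe sets, 59 controls were left out, and 5199 were kept whose second-highest array exceeded 3.71 log2, the median over the whole table. The platform's table gave 1 symbol for 7006 probe sets, several for 308 and none for 1426 of 8740, and 6985 of the 7006 matched a current gene table. The kept probe sets with 1 gene (4195) stand for 3034 genes, each represented by the one with the highest mean.

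With R 4.3.3, limma 3.58.1 (lmFit, then eBayes with its trend and robust options) was fitted to the 7 arrays with pool as a block for micromolar against nanomolar. The contrasts with vehicle, between the micromolar doses and for TCDD came from 1 model of pool and 15 dose groups on all 26 arrays, so their differences need not equal the 7-array step. The tests were two-sided with Benjamini-Hochberg adjustment and a threshold of 0.05, and were tested on simulated data. Pools come from the labels. Deviations of same-pool arrays from their dose means had r of 0.63 to 0.78 over 3 dose pairs. Arrays of a pool share its mixed animals, so p-values measure only spread among arrays, which may be technical.

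Named genes were, per direction, the 15 with the smallest p and equal sign in both pools (as none passed), the AhR battery and complex, and up to 4 per list with the smallest p. The 27 pathway lists and 5 marker lists, the members and the rule were chosen with earlier results of these data known, and genes outside the rule were named after their values were seen. Alternatives were no pool block, other filters, centring, quantile normalization, other arrays in the fit, other variance settings and leaving out each array.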

Additional observations from a re-analysis of the deposited data

Results flagged for a closer look

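A search for pools on opposite sides covered only the 7 measured AhR battery genes, the 3 measured complex genes, Igfbp1, Slc26a1 and the 30 genes named by smallest p. Those 30 had been chosen for equal sign in both pools, so they could not qualify. For 4 of the genes searched, all micromolar arrays were on opposite sides of the nanomolar ones in the 2 pools. This difference between the pools was not tested. Other genes were not searched, so the share of all genes that meet this criterion is not known. The count of 4 is therefore not a result about these genes. By a looser measure, the sign of the mean step within a pool, 769 of all 3034 genes were below 0 in both pools and 449 above 0 in both. Cyp1a1 differed by -0.21 log2 in pool 1 and 0.28 in pool 2. Aldh3a1 differed by -0.19 in pool 1 and 1.43 in pool 2, where the 1 nM array was the low one. Igfbp1, an insulin-like growth factor binding protein of liver, differed by -0.22 and 0.67, and rose by 2.34 log2 over vehicle at micromolar doses (adjusted p = 0.00404, limma, lost without the pool block and without the pool 1 vehicle array). Slc26a1, a sulfate transporter of hepatocytes, differed by 0.10 and -0.96, and fell by 1.90 log2 against vehicle at micromolar doses (adjusted p = 0.0071, lost without the pool block and without the pool 2 vehicle array).

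Among the arrays outside the comparison, the pool 2 array labelled PCB 126 at -12 log10 M (0.001 nM) read 10.80 for Cyp1a1, where the vehicle arrays read 3.45 and 3.28 and the pool 1 array of that dose 3.21. The same array read 9.21 for Cyp1a2, 9.14 for Cyp1b1 and 6.45 for Aldh3a1. At the next higher dose, 0.01 nM, pool 2 read 7.91 for Cyp1a1.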

How the results depend on the processing

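Micromolar against nanomolar gave 0 passing probe sets under every alternative that kept both micromolar doses or 1000 nM alone, including no replicate block (0, with 25 at an unadjusted p below 0.05) and each array left out in turn (0 to 0, with 34 to 552 unadjusted). With 10000 nM alone it gave 258, or 135 without the trend and robust settings, 1 after quantile normalization, 1 after centring, and 0 in the group models on all 26 arrays or on the PCB 126 and vehicle arrays. The count of 258 used 2 residual degrees of freedom. Nanomolar against vehicle gave 66, and 20 without the pool block, 42 after centring, 41 with no filter and 21 to 73 with an array left out. Micromolar against vehicle gave 158, and 39 without the pool block, 119 after centring, 130 with no filter and 80 to 126 with an array of its groups left out (156 without the array labelled 0.001 nM of pool 2). The 10000 against 1000 nM contrast gave 0, and 1 with no filter. With an array left out it gave 0 to 5 (1 without the 1000 nM array and 5 without the 10000 nM array of pool 2). On the 4 micromolar arrays alone it gave 737 with the trend and robust settings and 1 without them. The count of 737 therefore depends on how the spread was set. The TCDD step gave 0 to 3 and the difference of the steps 0 to 2 with an array left out, and 0 without the pool block. In micromolar against nanomolar, 91 of 145 named genes kept their sign under all alternatives run on them (24 or 25 a gene). The 91 include the 30 genes picked for equal sign in both pools. Cyp1a1, Cyp1b1, Nqo1 and Aldh3a1 did not keep their sign, and their intervals include 0. Of the vehicle calls named above, those of Nqo1 and Cyp2a1 held under every alternative at both dose ranges. The quantile, 26-array and 10000 nM-only combinations and the array left out at 0.001 nM were chosen after seeing the data. Dim genes such as Aldoc are limited by their low values, and how the processing treated these was not tested.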
